A study of Mus musculus with 5 samples.

Results

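T-cell leukemias driven by intracellular Notch1 were compared with and without a mutant IL7R on 1 of the 5 arrays of the series. The array was chosen by its title, and it carried 23473 probe IDs, of which 23467 passed the spot flags. Both leukemias arose from KSL cells, a mouse bone marrow fraction rich in stem and early progenitor cells, of the Balb/c strain. The cells received an intracellular Notch1 vector (ICN1) together with a vector for either wild-type IL7R (WT) or the mutant named INS. They were transplanted into lethally irradiated recipients, and the T-cell acute lymphoblastic leukemias (T-ALL) were sorted around day 30 to 40 and pooled. Active Notch1 was therefore shared by both groups, and the added WT or INS receptor was the labelled difference. WT RNA carried the dye Cy5 and INS RNA the dye Cy3 on the same array. Each group is 1 pool, the number of animals per pool is not stated in the sources used here, and without a dye swap the effects of dye and of INS cannot be told apart. The other 4 arrays compare the same WT and INS vectors without the Notch1 vector, again 1 pool for each group and with INS in Cy3 on every array. A dye effect of a probe that recurs between arrays would therefore count as sharing between them. They hold a KSL culture of 4 to 5 days with cytokines, a culture of common lymphoid progenitors (CLP) of 5 to 7 days with IL-7 and stroma, and cells taken from mice. Those from mice are IgM+B220+ B cells around day 60 from transduced CLP given after 4 Gy, where the INS sample is labelled leukemic, and common myeloid progenitors (CMP) around day 40 from transduced KSL cells given after lethal irradiation.

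IL7R encodes the alpha chain of the interleukin-7 receptor, which pairs with the common gamma chain and signals through JAK1, JAK3 and STAT5. The pathway keeps early lymphoid cells alive and dividing, and mutations that switch the receptor on without its ligand are known in human T-cell leukemia. Notch1 directs progenitors into the T lineage, and its intracellular form, which no longer needs a ligand, gives T-cell leukemia in mice after retroviral transfer. Both lesions are known to occur together in this disease, which is the setting this comparison addresses.

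The files used here do not pair probe IDs with genes, and 0 of the IDs matched the RefSeq table, so results are given by probe. The T-cell identity of the samples, the level of Il7r and the lists of Notch, IL-7 and cell type genes could not be checked for the same reason. Probes selective for other cells in the series served as the only measure of other cell types.

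A probe counted as detected when its spot signal lay above the mean of 2736 blank spots by more than 2 SD, which was 70.9 in INS and 18.7 in WT. By this limit 17846 probes (76.0%) were detected in INS, 18556 (79.1%) in WT and 17039 in both. Spots without a probe passed the limit in 16.7% of cases in INS and 50.7% in WT, so a detected probe need not be an expressed one. The 96 negative control spots passed it in 9.38% and 7.29% of cases. For the 2 positive controls the log2 ratio of INS over WT averaged 0.24 ± 0.08 and -0.17 ± 0.08 (SD over 24 spots each). That SD covers spotting and scanning only. Sample-to-sample error was not measured, so the differences come without a p-value and without a check in replicates.

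The mutant and wild-type leukemias had closely alike profiles, with more probes higher than lower in INS. Of 19363 probes detected in at least 1 channel, 467 (2.41%) were at least 2-fold apart, 351 of them higher in INS (1.81%) and 116 lower (0.599%). Within 1.5-fold of each other lay 18133 probes (93.6%). Among all 23449 probes measured on every array, the log2 signals of the 2 leukemias had a Pearson r of 0.978 (Spearman rho 0.959). The same pair of values was 0.991 and 0.982 for the KSL culture, 0.963 and 0.960 for the CLP culture, 0.959 and 0.885 for the CMP, and 0.932 and 0.938 for the B cells. By Pearson r, T-ALL therefore stood next to the KSL culture. These are descriptions over probes of 1 array each, and the 2 channels of an array share its spots and its hybridization. Between channels of different arrays, Pearson r ran from 0.730 (WT B cells with INS CMP) to 0.961 (INS CLP culture with INS KSL culture). It was 0.932 for WT T-ALL with the WT CLP culture, so unlike samples also gave high values.

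The lean towards higher probes held up to an 8-fold limit, but it was not particular to T-ALL. At 2-fold, 1015 probes were higher and 172 lower in the CLP culture, and 31 and 4 in the KSL culture. The B cells had 969 and 788, and the CMP 524 and 540. INS was in Cy3 throughout, so a dye effect and an effect of INS on the lean cannot be told apart. On the T-ALL array at 3-fold, 125 probes were higher and 53 lower, and at 4-fold 71 were higher and 21 lower. At 8-fold 12 were higher and 4 lower, and the single probe past 16-fold was lower. In 23 of the 24 printing blocks more probes were higher than lower, and in 1 block the numbers were equal. Other processing kept the lean and changed its size: 75.2% of the probes apart were higher here, 88.3% with median centring in place of loess, 87.7% when the local background entered the correction, 60.1% after subtraction of the blank mean, and 55.9% after subtraction of the local background.

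**Figure D1:**
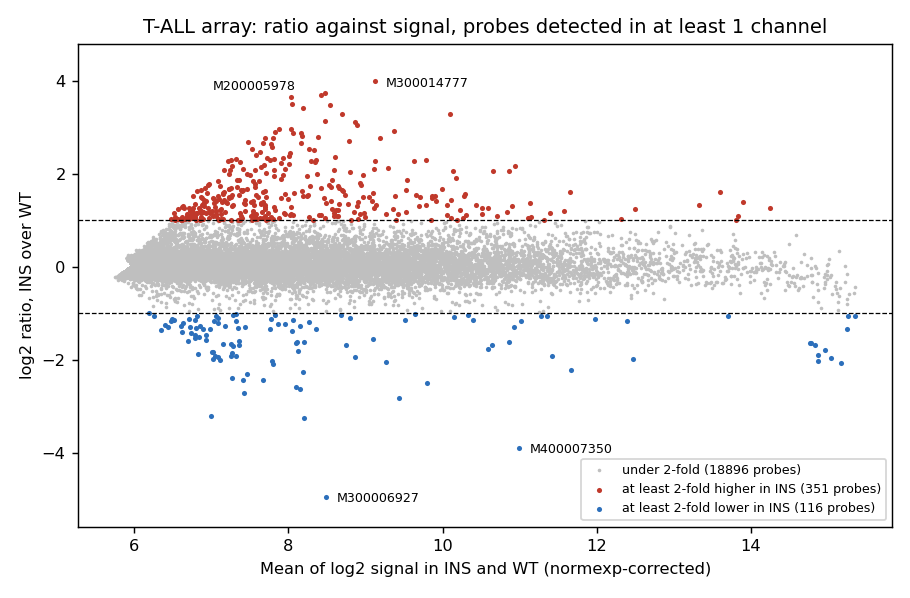
Each point is a probe detected on the T-ALL array, plotted by the mean of its log2 signals (x axis) and its log2 ratio of INS over WT (y axis), with dashed lines at 2-fold and the 4 named probes labelled. Most of the 351 higher probes lie at middle signals, and 11 of the 116 lower probes form a separate group at the bright end.

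Brightness set where differences could be seen. Detected probes were split by mean signal into 4 equal groups. In the dimmest group, with median signals of 73 (INS) and 20 (WT), none of 4842 probes was 2-fold apart, because the offset of 50 added to each signal holds ratios of dim spots near 1. The second group had 39 higher and 22 lower probes. The third group, with median signals of 251 in INS and 105 in WT, had 205 higher and 56 lower. The brightest group had 107 higher and 38 lower. Counts over this array therefore describe probes of middle and high signal.

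Many differences were those of a probe seen in one leukemia and near background in the other. Among the 351 higher probes the INS signal had a median of 481 and the WT signal one of 53, and in 132 of them the WT signal was no more than 2 times the limit. Among the 116 lower probes it was 270 in WT and 140.5 in INS, and in 59 of them the INS signal was no more than 2 times the limit. The other 219 higher and 57 lower probes were above 2 times the limit in both channels. Their differences are ones of level rather than of presence.

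Probes seen in a single channel were mostly faint. Only in INS were 807 probes detected, with a median signal of 73, and only in WT 1517, with a median signal of 20, close to the limits of 70.9 and 18.7. Set against the dimmest detected signal of the other channel after loess, 20 of the 807 exceeded WT by at least 2-fold, the most extreme by at least 6.48-fold. In the same way 4 of the 1517 were at least 2-fold lower, the most extreme at least 6.57-fold. Such bounds are open to dye bias. Of the 351 higher probes, 20 were detected in INS alone, and of the 116 lower probes 6 in WT alone.

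The named probes are the 2 highest and the 2 lowest ratios among 9673 probes detected in both channels with at least median brightness. M300014777 had a signal of 2947 in INS (pixel SD 517) and 67 in WT (pixel SD 21.4), and was 15.9-fold higher in INS (7.51-fold to 29.3-fold over 8 alternative settings). Its signal was 2905 in INS and 106 in WT in the B cells, 12099 and 7652 in the KSL culture, 2980 and 1793 in the CLP culture, and 6297 and 3519 in the CMP. The probe was thus bright in both channels of the progenitor arrays and in both mutant leukemias, and dim in WT T-ALL and WT B cells. Its log2 ratio was 3.99 in T-ALL and 3.36 in the B cells, against -0.12 in the KSL culture, 0.53 in the CLP culture and 0.76 in the CMP.

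M200005978 was likewise dim in WT T-ALL and bright in both mutant leukemias, but it was also dim in the WT CLP culture. Its signal was 1710 in INS (pixel SD 274) and 36 in WT (pixel SD 9.94), 13.3-fold higher in INS (7.34-fold to 42.0-fold over 8 alternative settings). In the B cells it was 2661 in INS and 151 in WT, a log2 ratio of 2.83. The KSL culture had 3677 in INS and 1942 in WT, and the CMP had 1076 and 793, so that the log2 ratios were 0.00 and 0.51. In the CLP culture the INS signal was 363 and the WT signal 65, a log2 ratio of 1.64. WT T-ALL had the dimmest signal of the 5 WT channels, at 1.92 times its limit.

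M300006927 was the lowest probe, and WT T-ALL was the single channel in which it was bright. Its signal there was 1470 (pixel SD 214), against 86 in INS T-ALL (pixel SD 26.2), which made it 30.9-fold lower in INS. In the B cells, KSL culture, CLP culture and CMP it lay between 34 and 76 in INS and between 16 and 26 in WT, at most 1.41 times the limit. The INS signal in T-ALL was 1.21 times the limit, so the size of this fold rests on a signal near background. Over 7 alternative settings it lay between 10.4-fold and 126-fold, and local subtraction left no value, because the INS spot (86) equalled its local background (86). The WT spot had a local background of 1041 and each of its 8 neighbouring spots was dimmer than it in WT.

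M400007350 was bright in WT T-ALL and brighter in WT B cells. Its signal was 5962 in WT T-ALL (pixel SD 1135) and 686 in INS T-ALL (pixel SD 127), 14.97-fold lower in INS. In the B cells it was 64750 in WT, near the top of the scale, and 9078 in INS, a log2 ratio of -3.66. The KSL culture (75 in INS, 27 in WT) and the CMP (38 and 20) were near background in both channels. The CLP culture had 645 in INS and 270 in WT, with a log2 ratio of 0.83, opposite in sign to the -3.90 of T-ALL. Over 8 alternative settings the fold in T-ALL lay between 11.8 and 24.4.

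**Figure D2:**
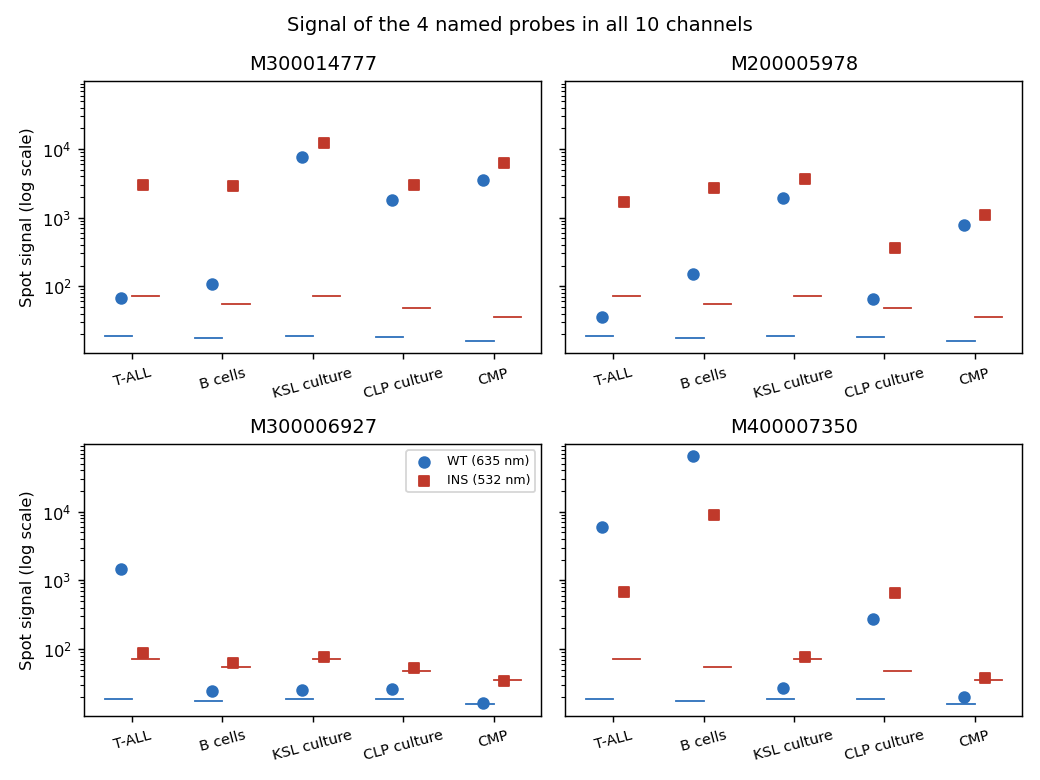
Each panel shows 1 named probe, with its spot signal on a log scale (y axis) in the WT (circles) and INS (squares) channels of each array (x axis), and short lines at the detection limits. M300014777 and M200005978 are dim in WT T-ALL and bright in INS T-ALL, M300006927 is bright in WT T-ALL alone, and M400007350 is brightest in WT B cells.

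The 12 highest probes by the same rule were 8.28-fold to 15.9-fold higher, with signals between 1162 and 4523 for INS and between 19 and 228 for WT. Their median signal lay at percentile 57.0 of the WT T-ALL channel and 43.5 of the WT B-cell channel, and at 83.6, 74.5 and 72.3 of the WT channels of KSL culture, CMP and CLP culture. The WT T-ALL value was fixed by the choice of the probes, while on the other arrays the median was lower in WT B cells than in the WT progenitors. In the KSL culture their log2 ratios ran from -0.20 to 0.49, so none was 2-fold apart there. The 12 lowest probes were 4.95-fold to 30.9-fold lower, with WT signals of 244 to 5962 and INS signals of 85 to 686. Their median signal lay at percentile 87.4 in WT T-ALL, again fixed by the choice, and at 99.03 in WT B cells, against 37.6 in the WT KSL culture. All 12 highest probes stayed at least 2-fold higher in each of the 8 other ways of obtaining the ratio. Of the 12 lowest, 10 stayed at least 2-fold lower in each setting that measured them. These settings reprocess the same spots of probes chosen for extreme ratios, so they are no check in replicates. The dimmer channel was at no more than 2 times its limit for 5 of the 12 highest and 7 of the 12 lowest.

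Over the whole lists, the lower probes kept a contrast between B cells and progenitors, and the higher probes showed little of it. The 116 probes lower in INS T-ALL had a median percentile of 94.99 in WT B cells and 88.2 in INS B cells. In the WT channels of CMP, CLP culture and KSL culture they lay at 64.7, 65.6 and 47.7. Probes of the brighter range of the T-ALL array that were under 2-fold apart lay between 77.7 and 78.9 in all of these 8 channels. The lower probes were thus above that level in B cells alone and below it in every progenitor channel. The 351 higher probes lay below it in all 8. Their medians ran from 63.5 in WT B cells to 71.8 in the INS CLP culture and the WT CMP. INS B cells (67.6) lay above the WT CLP culture (64.9). All probes detected on the T-ALL array, dimmer ones included, had medians between 57.9 and 58.5 in the same channels. The higher probes lay above that second level in all 8, and the lower probes lay below it in the KSL culture alone. The percentiles on the T-ALL array itself were fixed by the choice of the lists. Of the 116 lower probes, 43 belong to a group described below that was chosen for high signal in WT B cells. The B-cell contrast of the lower list and the result for that group therefore share probes.

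**Figure D3:**
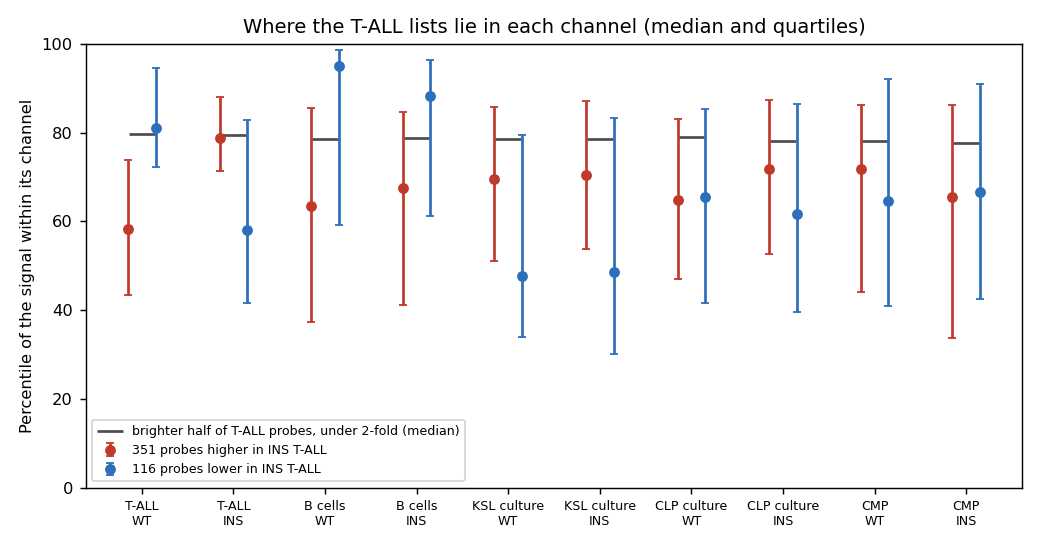
Points and bars give the median and quartiles of the signal percentile (y axis) of the 351 higher and 116 lower probes in each of the 10 channels (x axis), and grey marks give the median of brighter T-ALL probes under 2-fold apart. The lower probes reach 94.99 in WT B cells and 47.7 in the WT KSL culture.

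Probes selective for WT B cells were the clearest group on the lower side. For each of the other 4 WT channels, the 200 probes whose signal most exceeded the highest of the remaining 3 were taken, without use of the T-ALL array. The smallest lead within a group was 2.31 on the log2 scale for the B cells, 1.92 for the CMP, 1.05 for the CLP culture and 0.97 for the KSL culture. Of 192 B-cell-selective probes detected on the T-ALL array, 43 (22.4%) were at least 2-fold lower in INS and 16 (8.33%) were higher, beside 0.599% and 1.81% of all detected probes. These 43 made up 37.1% of the 116 lower probes. Their median signal was 152 in WT T-ALL and 86 in INS T-ALL.

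The B-cell-selective probes did not move as a block. Their log2 ratios ran from -3.90 to 2.28 with a median of -0.05, beside 0.00 over all detected probes, and 104 of the 192 were below 0. The 16 higher probes were brighter, with medians of 1345.5 (INS) and 192.5 (WT). The labels give a GFP+ sort, which selects transduced cells, and no lineage gate for the T-ALL pools. A smaller number of B cells in the pool and less of these RNAs per cell cannot be told apart in such bulk samples, and the part of other cells in the result was not tested. When the local background entered the correction, 23 of the B-cell-selective probes were lower and 14 higher.

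The other selective groups each had more higher than lower probes, as did all detected probes (1.81% higher, 0.599% lower). Among 170 KSL-selective probes measured, 14 (8.24%) exceeded 2-fold upward in INS T-ALL and 0 downward, with a median log2 ratio of 0.12. Of 181 CLP-selective probes, 19 (10.5%) were higher and 4 (2.21%) lower, with a median of 0.05. Of 194 CMP-selective probes, 13 (6.70%) were higher and 7 (3.61%) lower, with a median of -0.05. Whether these probes mark myeloid cells could not be checked. On the CMP array the negative control spots passed the WT limit in 30.2% of cases, against 7.29% on the T-ALL array. The B-cell, CLP and CMP groups thus had larger shares of 2-fold probes than the array as a whole on both sides. The KSL group had a larger share on the higher side only. Probes that differ strongly between cell types are bright in some of them, and the dimmest of the 4 signal groups could give no call.

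**Figure D4:**
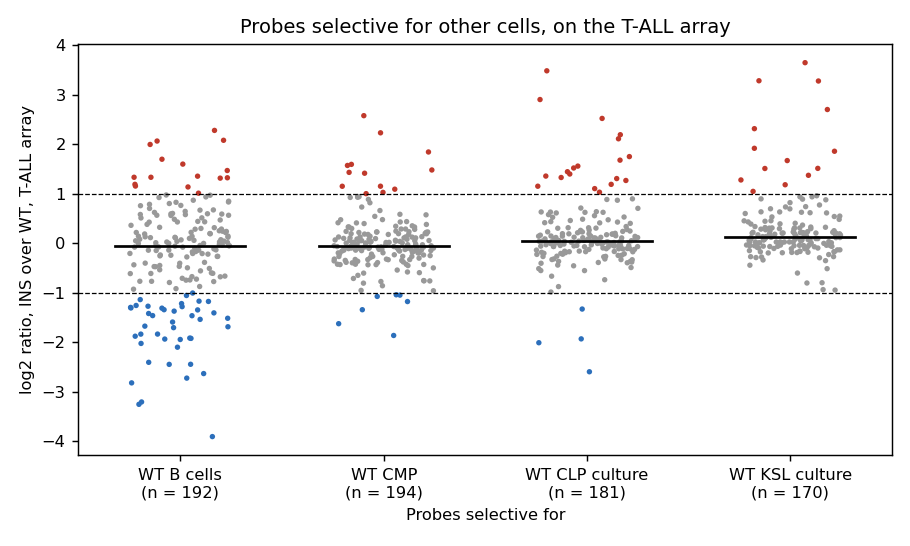
Each point is the log2 ratio of INS over WT on the T-ALL array (y axis) of a probe selective for 1 of the 4 other WT samples (x axis), with a black line at the median and dashed lines at 2-fold. The B-cell-selective probes include 43 that are at least 2-fold lower, and the KSL-selective probes include none.

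The 11 brightest of the lower probes behaved differently from the rest. They lay at a mean log2 signal of 14 or more, a limit set after the plot of ratio against signal was seen, with INS signals between 18006 and 34935 and WT signals between 40599 and 62491. Their log2 ratios ran from -2.08 to -1.05, and no other lower probe exceeded a mean log2 signal of 13.7. Of all 134 probes above the same limit 1 was higher, and their median log2 ratio was -0.19. On the KSL culture, CLP culture and CMP arrays all 11 also had ratios below 0, with medians of -0.55, -0.91 and -0.62. INS was in Cy3 on those arrays too, and the part of the dye was not tested. In the B cells 8 of the 11 were at least 2-fold higher and the median was 1.75. When the local background was subtracted, 7 of the 11 stayed 2-fold lower and 1 turned above 0. Without these 11, 105 probes were lower.

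Mutant IL7R without the added Notch1 vector was measured on the other 4 arrays, which share no sample with the T-ALL array according to the labels. The KSL culture and the CMP came from the same starting fraction. Of the 351 higher probes 330 were measured in the KSL culture, and 1 was 2-fold higher in INS and 0 lower, on an array where 0.161% of probes were higher. The list still leaned upward within that narrow range, with a median log2 ratio of 0.13 and 247 of 330 above 0, against 0.00 and 51.0% over all probes measured on both arrays. As INS was in Cy3 on both, a shared dye effect and a shared effect of INS cannot be told apart. Across 18153 such probes r was 0.210, and 0.489 with median centring. Of 98 lower probes measured, 2 were higher and 1 was lower in the INS KSL culture (0.0208% of all probes there were lower). That 1 lower probe is among the 11 brightest lower probes.

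In the CLP culture, 107 of 341 higher probes measured (31.4%) were also at least 2-fold higher in INS, beside 5.04% of all probes on that array, and 12 were lower. The same limit of a shared dye orientation applies. These 107 are 30.5% of the T-ALL list and 10.5% of the 1015 probes higher in the INS CLP culture. Their list had a median log2 ratio of 0.41 there. Of 107 lower probes measured, 13 (12.1%) were lower in the culture as well, beside 0.854% of all probes, and 7 were higher. Among the 13 are 5 of the 11 brightest lower probes, for which the part of the dye was not tested. The sharing was thus larger on the higher side in number, while both sides lay above the share of the whole array. The T-ALL lists hold no probe of the dimmest T-ALL signal group, whereas the shares of the whole array cover dim probes as well. The part of brightness in this excess, here and on the B-cell and CMP arrays, was not tested.

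The B cells split the higher list and shared the lower one mainly through B-cell-selective probes. Of 331 higher probes measured there, 73 (22.1%) were higher in INS B cells and 62 (18.7%) lower, beside 4.88% and 3.97% of all probes. Their median log2 ratio was -0.04. Of 114 lower probes measured, 48 (42.1%) were lower in INS B cells and 19 (16.7%) higher, with a median of -0.42. Of the 48, 37 were B-cell-selective probes, a group chosen for high WT B-cell signal. On the B-cell array itself, 180 of the 200 B-cell-selective probes were at least 2-fold lower in INS. The sharing of the lower list and the B-cell-selective result thus rest largely on the same probes. Of the 43 B-cell-selective probes lower in INS T-ALL, 0 were higher in INS B cells, so all of the 19 lie outside that group. Outside it, more probes of the lower list were higher than lower in INS B cells. Of the 19, 8 are among the 11 brightest lower probes. The 48 are 41.4% of the T-ALL list and 6.09% of the 788 probes lower in INS B cells. M400007350 belongs to them, while M300006927 was near background in both B-cell channels. Under median centring 28.7% of the longer list of higher probes were higher in INS B cells and 10.6% lower.

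In the CMP the shares that went the same way lay nearer to those of the array than in the CLP culture and the B cells. For the higher list the share that went the opposite way was above that of the array as well. No sharing is read from these small numbers. Of 303 higher probes measured, 17 (5.61%) were higher and 13 (4.29%) lower, beside 3.03% and 3.12% of all probes. Their median log2 ratio was -0.07, and 114 (37.6%) were above 0, against 46.1% of all probes measured on both arrays. Of 98 lower probes, 5 (5.10%) were lower and 1 (1.02%) was higher. Among the 5 are 3 of the 11 brightest lower probes, for which the part of the dye was not tested. That array was the dimmest of the series, with 58.2% of probes detected in INS.

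**Figure D5:**
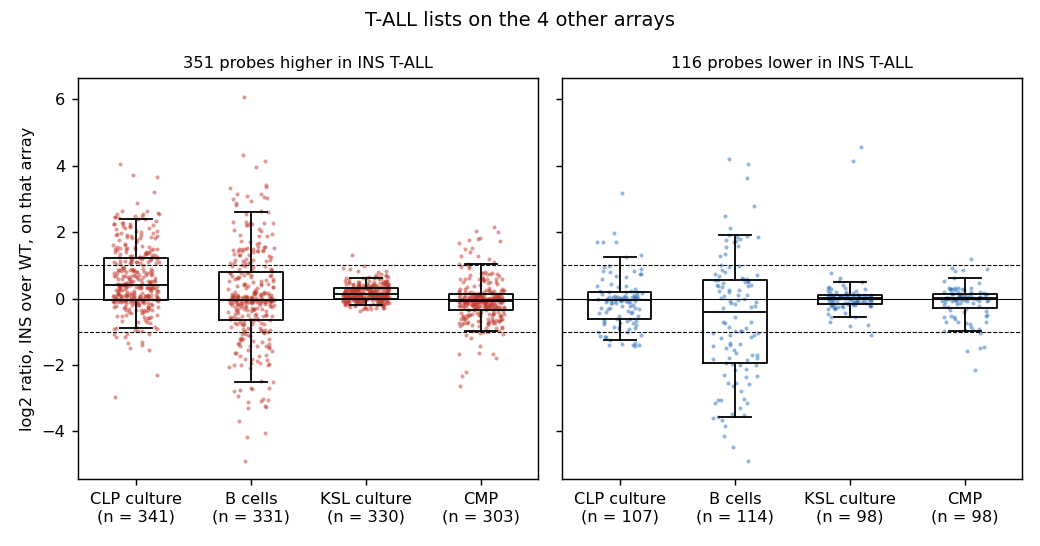
Points are the log2 ratios of INS over WT (y axis) that the 351 higher (left) and 116 lower (right) T-ALL probes had on each other array (x axis), with boxes for the quartiles, whiskers for the 5th and 95th percentiles and dashed lines at 2-fold. The higher list is shifted upward in the CLP culture, and the lower list reaches furthest down in the B cells.

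Of the 351 higher probes, 143 (40.7%) were 2-fold apart on no other array on which they were measured, and of the 116 lower probes 38 (32.8%). These include 7 higher and 2 lower probes measured on none of the other arrays, and 291 of the higher and 95 of the lower probes were measured on all 4. Over all probes the share 2-fold apart was 8.85% in the B cells, 6.16% in the CMP, 0.182% in the KSL culture and 5.89% in the CLP culture. Among the higher probes, 152 were higher on 1 other array, 17 on 2 and 4 on 3. Among the lower probes these numbers were 58, 3 and 1, and no probe of either list went the same way on all 4. A 2-fold difference in the opposite direction on at least 1 array was seen for 82 higher and 28 lower probes. Within 1.5-fold on all 4 other arrays lay 56 of the higher and 16 of the lower probes. For these counts over several arrays, the matching shares of all detected probes are not given here. The counts therefore do not show whether the lists are shared more or less than other probes. With 1 array for each setting, no difference between T-ALL and another setting was tested.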

How the data were processed

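The scanner files, as deposited by the authors, give an intensity per spot on a linear scale and a local background beside it. Their headers name Cy3 over Cy5 as the direction of the ratio by wavelength and record neither a normalization nor a background step. A second table deposited by the authors gives log2 ratios whose scale, centring and direction are unstated. Its T-ALL column had a median of -1.8e-05. Against the log2 ratio of INS over WT after blank subtraction it had a Pearson r of 0.895 across 17715 probes, and over the 4840 brightest a slope of 0.994 with r = 0.998. These values give centring on the median, INS over WT and a log2 scale, and leave the background step and filter unknown. It was an alternative only.

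Foreground medians were corrected with normexp (offset 50, limma 3.58.1, R 4.3.3) without the local background, which held signal of bright spots: a median of 7412 around a positive control with a foreground of 21523.5 in INS. Ratios were then normalized by loess within the array (span 0.3, control spots at weight 0), and 6 flagged probes were left out. For the detection limit, 5% of blank spots were trimmed at each end. No probe on the T-ALL array reached 65000, the level taken as saturated. The background correction and loess of the main setting were tested on a simulated array in which only bright probes were changed. Detection, changes in dim probes and the probe lists were not covered by that test. Intensities give no depth, so the number of arrays limits the precision.

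Named probes were the 2 highest and 2 lowest ratios among probes detected in both channels, unsaturated and at or above the median intensity. The array, the selective groups of 200 probes and all lists were chosen with earlier results of these data known. Percentiles are ranks of the uncorrected signal among all probes of a channel. For selective groups, the 4 WT channels were first quantile-normalized. Alternatives were median centring, other background corrections, an offset of 10, loess within printing blocks, pixel means, the value table and other filters.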

Additional observations from a re-analysis of the deposited data

Results flagged for a closer look

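Some probes were at least 2-fold apart in T-ALL and at least 2-fold apart in the opposite direction on another array. There were 81 such probes of 18487 measured on both in the B cells, of which 62 were higher in INS T-ALL and lower in INS B cells, beside 121 probes that went the same way. In the CLP culture there were 19 of 18611, beside 120 the same way, and in the CMP 14 of 16517, beside 22 the same way. In the KSL culture there were 2 of 18153, beside 2 the same way. With 1 array for each setting these differences were not tested.

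Spots listed as holding no probe lay above the detection limit in 50.7% of cases in the WT T-ALL channel, against 7.86% of blank spots. In the INS channel the share was 16.7%, against 7.71% of blank spots. These spots enter no comparison, and their part in the counts of detected probes was not tested.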

How the results depend on the processing

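The direction of the lean, with more probes higher than lower in INS T-ALL, held under all alternatives run, but the counts depended on the treatment of dim spots. Higher and lower probes were 351 and 116, and became 2100 and 1660 with local background subtraction, 1605 and 1064 with blank subtraction, 630 and 189 with an offset of 10, and 1122 and 292 in the authors' value table. They were 125 and 53 at 3-fold, 71 and 21 at 4-fold, 647 and 86 with median centring (the median of all probes was then 0.09), and 512 and 72 with normexp on the local background. Of the 351 higher probes, 173 stayed 2-fold higher in every setting that measured them and 0 turned sign, and of the 116 lower probes 48 stayed and 4 turned.

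The correlations of log2 ratios between arrays describe probes, which are not replicates. With the CLP culture r was 0.232, and 0.237 with median centring, 0.165 with local subtraction, 0.267 with normexp on the local background, 0.192 with blank subtraction, 0.266 in the value table and 0.250 over brighter probes. With the B cells r was 0.031, and with median centring, local subtraction, normexp on the local background, blank subtraction, the value table and an offset of 10 it was 0.233, 0.062, 0.107, 0.019, 0.0074 and 0.042. With the KSL culture r was 0.210, and in the same order 0.489, 0.103, 0.230, 0.102, 0.223 and 0.188, with 0.203 for both block loess and pixel means. With the CMP r was -0.080, and -0.160 with median centring, -0.067 with blank subtraction, -0.089 with an offset of 10, -0.074 in the value table and -0.073 over brighter probes. It turned to 0.015 with local subtraction and 0.109 with normexp on the local background, and the cause was not tested.

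The share of higher probes also higher in the CLP culture was 31.4%, and 37.2% with blank subtraction, 36.6% with an offset of 10, 39.9% in the value table and 25.8% with normexp on the local background. The share of lower probes also lower in B cells was 42.1%, and 21.2% with local subtraction, 21.3% with blank subtraction and 27.2% in the value table. B-cell-selective probes lower in INS T-ALL numbered 43, and 68 with local subtraction and 23 with normexp on the local background. Those higher numbered 16, and 29 with median centring, 25 with local subtraction, 28 with blank subtraction and 28 in the value table. The alternatives for the selective groups and the list shares were added after the data were seen. No paired analysis was possible because each group has 1 sample. Signals near the blank level limit calls among dim probes.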
